A study of Mus musculus with 6 samples.

Results

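Imprinted genes are expressed mainly from the copy inherited from 1 parent, and 46 of them at 15 loci were followed here in cells of the mouse embryo. They were chosen by name, as genes known to be imprinted in the mouse, and each was read from a probe set that the platform annotation gives to that gene only. Of the 46, 40 had such a probe set, 17 of them expressed from the paternal and 23 from the maternal copy, among 19937 genes measured in all. Mirg, Snrpn, Ube3a and Gnas were covered only by probe sets shared with other genes, and Slc22a3 and Peg13 had no listed probe set, so these 6 were not analysed here. Each measured member had 1 probe set.

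The cells were dissected from CD1 mouse embryos at E11.5, labelled as time T0, from the region that holds the dorsal aorta, gonads and mesonephros (AGM). Those with surface CD31 (the product of Pecam1) and without CD45 (Ptprc) or Ter119 were split by the receptor c-kit (Kit), giving 3 arrays with it and 3 without. Replicates are labelled biological, with no word on pooling of embryos, so each p-value rests on the spread among these arrays, which may be technical. Kit RNA averaged 9.55 ± 0.03 with c-kit and 8.22 ± 0.04 without it (log2, SD, n = 3 each), in the direction of the labels. Pecam1, whose product all sorted cells carry, was 1.86-fold lower with c-kit (adjusted p = 0.00597, limma). Ptprc, whose product the sort selects against, read 9.40, 8.66 and 8.21 without c-kit and 8.37, 8.60 and 8.59 with it (adjusted p = 0.689, limma). Array medians lay between 5.42 and 5.52 on the log2 scale.

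Imprinted genes lie in clusters, and in most clusters a control region that carries DNA methylation on only the maternal or the paternal copy sets which genes of the cluster are read from which copy. Many paternally expressed genes promote fetal growth, and several maternally expressed ones restrain it. The methylation is set in the germ line, kept in somatic cells with the help of the zinc finger protein ZFP57, and erased in primordial germ cells while they colonise the genital ridges of this region. The arrays measure total RNA and do not tell the parental copies apart, so parental origin below is background. Some members are imprinted in most embryonic tissues, and others only in tissues such as placenta or brain. They are called broadly and tissue-restricted imprinted genes here.

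More imprinted RNAs were lower than higher in c-kit-positive cells, and most passed in neither direction. Of the 40 measured, 15 fell and 1 rose (limma, Benjamini-Hochberg adjusted p under 0.05 over all genes), so that 37.5% fell, where 4.70% of all genes fell, 2.71% rose and 7.41% passed in either direction. Over all genes 937 fell and 540 rose; with ribosomal protein genes as the reference these became 1351 and 266, and 17 members fell and 1 rose. Mest, which encodes a protein of the alpha/beta hydrolase fold, was 25.3-fold lower. The nuclear RNA Rian was 11.7-fold lower, Peg10, a gene derived from a retrotransposon, 9.55-fold, and Asb4, a subunit of ubiquitin ligases expressed in embryonic vessels, 8.15-fold. Phlda2, which restrains placental growth, was the member that rose, by 2.63-fold. In sorted bulk samples, fewer cells of a type and less RNA per cell cannot be told apart.

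The falls were large. Of the 15 members that fell, 14 did so at least 2-fold and 10 at least 4-fold. Of the 937 genes that fell over all genes, 615 did so at least 2-fold and 189 at least 4-fold. These were 14 and 10 of the 40 measured members, beside 3.08% and 0.948% of all 19937 genes. The median difference of the 15 was -2.29 on the log2 scale. Over all 40 members the median was only -0.12, beside 0.07 over all genes, and over the 24 that passed in neither direction it was 0.03. The median over all 40 became -0.26 without c-kit-positive replicate 1 and -0.23 without c-kit-negative replicate 1. The populations did not overlap for 19 members, 16 of them lower and 3 higher in c-kit-positive cells, where 26.8% of all genes had no overlap and 10.6% were separated in the lower direction.

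Falls were found in both parental classes. Of 17 paternally expressed genes 7 fell and none rose, with 9 at an unadjusted p under 0.05, a level that 21.0% of all genes reached, and a median difference of -0.17. Of 23 maternally expressed genes 8 fell and 1 rose, with 11 at an unadjusted p under 0.05, beside the same 21.0%, and a median of -0.05. The shares, 41.2% and 34.8%, were not tested against each other. Most calls were in broadly imprinted genes. Of 25 broadly imprinted genes 13 fell and 1 rose (median -0.97), and of 15 tissue-restricted ones 2 fell and none rose (median 0.03), a difference that was also not tested. This split was assigned from general knowledge, with earlier results of these data known, and not read from a file. The dimmer 50% of all genes, where array background can hide differences, held 7 of the 25 and 8 of the 15.

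**Figure D1:**
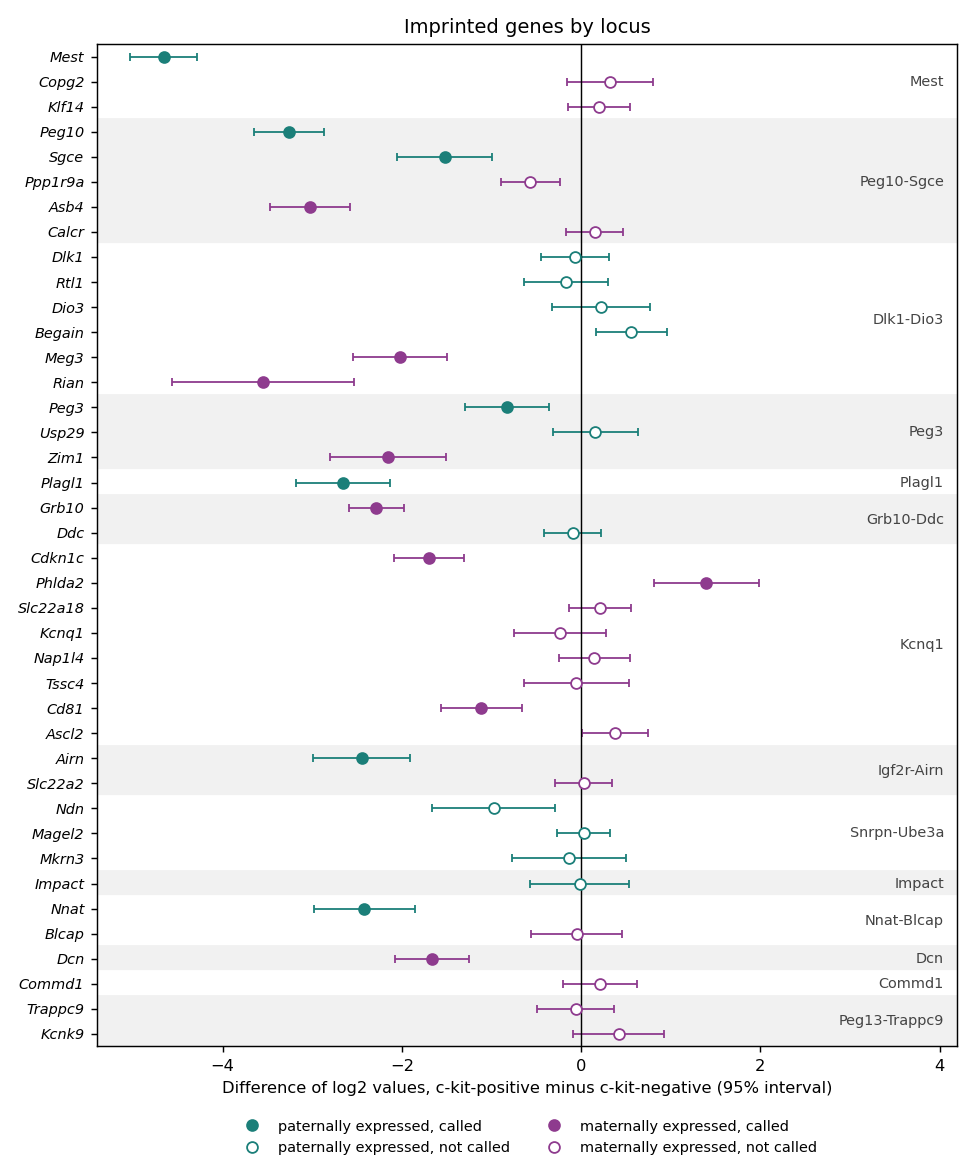
Difference of log2 values, c-kit-positive minus c-kit-negative, for the 40 measured imprinted genes, ordered by locus (limma, bars 95% interval, n = 3 arrays a population). Filled points passed the threshold: 15 lie left of 0, from Mest at -4.66 to Peg3 at -0.82, and Phlda2 lies right of 0 at 1.40.

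Promoters of 4 called members are shown because they carry different imprinting marks. Those of Mest and Plagl1 are methylated on the maternal copy from the egg on, that of Meg3 becomes methylated on the paternal copy, and Phlda2 is silenced from a control region elsewhere in its cluster. Each is the 250 bases before the gene's start in RefSeq (GRCm38.p6), 5′ to 3′ on the gene's strand. Mest lies at chr6:30737800-30738049 (+), Plagl1 at chr10:13090582-13090831 (+), Meg3 at chr12:109540746-109540995 (+) and Phlda2 at chr7:143502525-143502774 (-). Mest has 3 windows in that table, of which 2 hold equally many matches and the first of these is shown, and Meg3 has 2, of which the one with a match is shown. Capitals mark the motif TGCCGC or its reverse complement GCGGCA, the letters that ZFP57 recognises when methylated.
Mest: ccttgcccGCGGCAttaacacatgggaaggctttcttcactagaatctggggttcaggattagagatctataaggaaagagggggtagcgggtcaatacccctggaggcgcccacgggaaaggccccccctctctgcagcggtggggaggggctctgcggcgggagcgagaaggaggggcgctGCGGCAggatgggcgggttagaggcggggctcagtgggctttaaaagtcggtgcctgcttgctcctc
Plagl1: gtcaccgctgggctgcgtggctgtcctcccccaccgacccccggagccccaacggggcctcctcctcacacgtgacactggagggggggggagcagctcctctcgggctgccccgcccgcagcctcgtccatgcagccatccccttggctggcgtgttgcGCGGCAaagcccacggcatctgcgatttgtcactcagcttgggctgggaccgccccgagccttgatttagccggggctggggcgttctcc
Meg3: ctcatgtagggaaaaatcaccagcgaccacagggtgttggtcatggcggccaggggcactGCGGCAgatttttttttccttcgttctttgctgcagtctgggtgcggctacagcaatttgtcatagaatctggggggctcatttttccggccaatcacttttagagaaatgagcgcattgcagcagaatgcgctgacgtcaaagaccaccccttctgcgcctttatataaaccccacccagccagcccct
Phlda2: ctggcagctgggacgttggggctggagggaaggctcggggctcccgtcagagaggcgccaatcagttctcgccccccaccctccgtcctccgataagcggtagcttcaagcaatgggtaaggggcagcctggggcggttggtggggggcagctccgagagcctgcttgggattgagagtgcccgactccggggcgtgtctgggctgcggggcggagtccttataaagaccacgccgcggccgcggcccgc
The motif occurs 2 times in the sequence of Mest, 1 time each in those of Plagl1 and Meg3, and 0 times in that of Phlda2, which holds 21 CG dinucleotides against 14, 19 and 10 in the other three. Over windows that run on to 50 bases after the start, searched on both strands with this motif alone, 10 of the 29 measured members with a window held it at any start, or 34.5%. Among all 15613 measured genes with a window the share was 17.2%. It was found in 6 of 11 members that fell (Mest, Meg3, Zim1, Plagl1, Grb10 and Nnat) and in 4 of 17 that passed in neither direction (Copg2, Calcr, Slc22a2 and Commd1). Counted by window, 11 of 42 windows of members held it, or 26.2%, against 15.1% of the 19176 windows of measured genes. The median number of CG dinucleotides in a window was 17 in members and 15 in measured genes. A match is a run of letters and no evidence of binding, and these shares were not tested.

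Among the paternally expressed genes, Mest changed most. Its c-kit-negative arrays read 11.08, 11.26 and 11.14 (replicates 1, 2 and 3) and its c-kit-positive ones 6.20, 6.68 and 6.62, a difference of -4.66 ± 0.16 (log2, SE, adjusted p = 5.34e-06, limma). The 3 values of a population lay close together and far from those of the other. Peg10, needed for the placenta to form, was at 11.42, 11.54 and 11.53 against 8.02, 8.13 and 8.57, a difference of -3.26 ± 0.17 (SE, adjusted p = 2.98e-05, limma). Its c-kit-negative arrays lay close together and all stood above the c-kit-positive ones. Plagl1, a zinc finger transcription factor that can arrest the cell cycle, was at 9.55, 9.62 and 9.29 against 7.36, 6.57 and 6.58 (difference -2.65 ± 0.23, SE, adjusted p = 0.000314, limma). Replicate 1 was the highest of the c-kit-positive arrays.

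Airn, the long noncoding RNA that silences Igf2r on the paternal copy, was at 7.60, 6.94 and 7.89 against 5.06, 4.85 and 5.18, or 5.46-fold lower (adjusted p = 0.000608, limma). Nnat, a small membrane protein of the endoplasmic reticulum, was at 8.52, 8.63 and 9.06 against 6.59, 5.79 and 6.58, or 5.35-fold lower (adjusted p = 0.000815, limma). In both genes every c-kit-negative array lay above every c-kit-positive one. Sgce, a sarcoglycan that shares its promoter region with Peg10, was at 6.95, 7.16 and 6.51 against 5.66, 5.45 and 4.94 (difference -1.52 ± 0.23, SE, adjusted p = 0.00579, limma). In either population replicate 3 was its lowest array. Peg3, a zinc finger protein with roles in growth and maternal behaviour, was at 10.36, 9.88 and 10.53 against 9.17, 9.65 and 9.48, the smallest fall at 1.77-fold (adjusted p = 0.0483, limma). The groups came close to each other without overlapping, and this call was not stable: the adjusted p was 0.0591 with each array centred on its median, and 0.0638 to 0.145 when any array other than c-kit-negative replicate 2 was left out (limma).

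**Figure D2:**
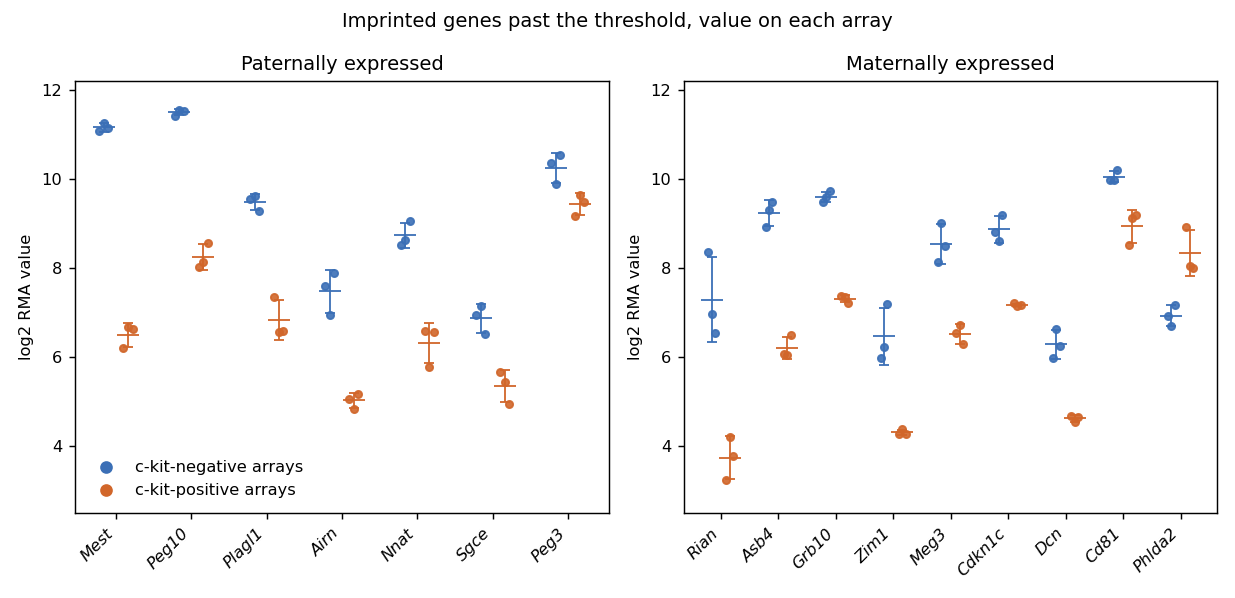
Log2 RMA value on each array for the 16 imprinted genes past the threshold, paternally expressed on the left and maternally expressed on the right (points, arrays; bars, mean and SD, n = 3 a population). Mest reads 11.08 to 11.26 without c-kit and 6.20 to 6.68 with it, and in Phlda2 the order is turned.

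Paternally expressed members that did not pass included the ligand-like transmembrane protein gene Dlk1, at 7.53 ± 0.19 in c-kit-negative and 7.46 ± 0.22 in c-kit-positive cells (SD, n = 3 each). The 95% interval of its difference ran from -0.45 to 0.31. Impact, a regulator of translation under amino acid shortage, differed by -0.02 (interval -0.56 to 0.53). Ndn, encoding necdin, which restrains cell growth, was at 6.39, 6.95 and 7.09 against 6.47, 5.34 and 5.69, with 1 c-kit-positive array inside the c-kit-negative range. Its difference of -0.97 did not pass (adjusted p = 0.0996, limma), and it passed without that array, c-kit-positive replicate 1 (adjusted p = 0.0287, limma). Its neighbours Magel2, a partner of ubiquitin ligases, and Mkrn3, a ring finger protein, differed by 0.03 and -0.14. The remaining ones, Rtl1, Dio3, Begain, Usp29 and Ddc, had differences from -0.17 to 0.56 and adjusted p from 0.101 to 0.756 (limma). Of these 10 members 7 belonged to the dimmer 50% of all genes, where array background can hide differences.

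Of the maternally expressed genes, Rian and Meg3, long nuclear RNAs of the Dlk1-Dio3 domain, both fell. Rian was at 8.36, 6.98 and 6.54 against 3.25, 4.21 and 3.78, a difference of -3.55 ± 0.44 (SE, adjusted p = 0.00225, limma). Its c-kit-negative arrays were the most spread of any called member, with replicate 1 highest. Macrophage markers were highest on that array too, at a list mean of 7.31 against 6.36 and 6.17 on the others. Ptprc was also highest there, at 9.40 against 8.66 and 8.21, in cells sorted as lacking CD45. The part of macrophages in the value of Rian was not tested. Without that array the difference of Rian was -3.01, and it passed the threshold. Meg3 was at 8.13, 9.0 and 8.49 against 6.55, 6.73 and 6.28 (difference -2.02 ± 0.23, SE, adjusted p = 0.0015, limma), and its lowest c-kit-negative array was the one on which Rian was highest.

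Asb4 was at 8.91, 9.30 and 9.49 against 6.07, 6.05 and 6.49, a difference of -3.03 ± 0.20 (SE, adjusted p = 7.68e-05, limma). Grb10, an adaptor that restrains signalling by the insulin and IGF receptors, was at 9.48, 9.59 and 9.72 against 7.37, 7.35 and 7.22, or 4.88-fold lower (adjusted p = 4.65e-05, limma). Neither gene overlapped between populations. The replicates of Grb10 were tight (SD 0.12 without and 0.09 with c-kit), and those of Asb4 were more spread (SD 0.29 and 0.25, n = 3 each). Cdkn1c, the cyclin-dependent kinase inhibitor p57, was at 8.81, 8.60 and 9.19 against 7.21, 7.14 and 7.16, or 3.24-fold lower (adjusted p = 0.00074, limma). The c-kit-positive arrays of Cdkn1c were nearly equal.

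Zim1, a zinc finger gene next to Peg3, was at 5.99, 6.23 and 7.19 against 4.28, 4.38 and 4.28 (difference -2.16 ± 0.28, SE, adjusted p = 0.00279, limma), with c-kit-negative replicate 3 apart from the other two. Dcn, encoding the matrix proteoglycan decorin, was at 5.98, 6.64 and 6.25 against 4.68, 4.53 and 4.66, or 3.17-fold lower (adjusted p = 0.0011, limma). Cd81, a tetraspanin of many cell surfaces, was at 9.98, 9.97 and 10.20 against 8.51, 9.12 and 9.20, or 2.16-fold lower (adjusted p = 0.0124, limma). Dcn and Cd81 were the tissue-restricted genes that fell, and Dcn also stands in the mesenchymal marker list.

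Phlda2 was at 6.93, 6.70 and 7.16 in c-kit-negative and 8.92, 8.05 and 8.01 in c-kit-positive cells, a difference of 1.40 ± 0.26 (SE, adjusted p = 0.014, limma). Replicate 1 was the highest c-kit-positive array, and all 3 lay above the c-kit-negative ones. Without c-kit-negative replicate 2 the adjusted p was 0.0515 (limma). The other 14 maternally expressed genes passed in neither direction, with differences from -0.57 to 0.42. The nearest to the threshold was Ppp1r9a, an actin-binding protein also called neurabin, at 7.08, 7.19 and 7.14 against 6.60, 6.75 and 6.36 (adjusted p = 0.0549, limma). It passed at 0.0474 with each array centred on its median (limma). Ascl2, a transcription factor of the placenta, was at 4.37, 4.53 and 4.69 against 5.15, 4.83 and 4.74, narrowly separated and not past the threshold (adjusted p = 0.228, limma).

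Taken by locus, 10 of the 14 loci with a measured member held a call. Loci held from 1 to 8 measured members, so this count has no share of all genes to stand beside it. A call did not extend to a whole locus: at Kcnq1 5 of 8 and at Dlk1-Dio3 4 of 6 members passed in neither direction. In the Peg10-Sgce cluster genes of both parental classes fell: Peg10 and Sgce from the paternal copy and Asb4 from the maternal one. Calcr, the calcitonin receptor, differed there by 0.15 (interval -0.17 to 0.47). In the Peg3 domain the paternally expressed Peg3 and the maternally expressed Zim1 both fell. The protease gene Usp29, which starts beside Peg3, stood at 4.84 ± 0.25 against 5.00 ± 0.34 (SD, n = 3 each). Calcr and Usp29 belonged to the dimmer 50% of all genes, where array background can hide a fall. At Mest, the overlapping coatomer gene Copg2 differed by 0.33 and the transcription factor gene Klf14 by 0.20, and neither passed (adjusted p = 0.431 and 0.507, limma). The gap between the differences of Mest and Copg2 was -4.98 on the log2 scale. This pair, like those below, was chosen after its values were seen, and its gap was not tested.

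Pairs of neighbours parted at 3 further loci. Nnat fell while Blcap, the gene in whose intron it lies, differed by -0.05 (interval -0.56 to 0.46). Grb10 fell while Ddc, the aromatic amino acid decarboxylase gene beside it, differed by -0.09 (interval -0.41 to 0.22). Airn fell while the cation transporter gene Slc22a2 differed by 0.03 (interval -0.29 to 0.35). These 3 neighbours count among the tissue-restricted imprinted genes. Ddc and Slc22a2, at means of 4.91 and 5.01 without c-kit, belonged to the dimmer 50% of all genes, where array background can hide a fall. Blcap did not belong to it.

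The Kcnq1 cluster, in which all 8 members are maternally expressed, was the only locus with calls in both directions. Cdkn1c and Cd81 fell, Phlda2 rose, and the other five passed in neither direction. The difference of Cdkn1c stood 3.09 below that of Phlda2. Kcnq1, a potassium channel gene, differed by -0.24 (interval -0.75 to 0.28), Nap1l4, a histone chaperone, by 0.15 (interval -0.24 to 0.54), Slc22a18, a membrane transporter beside Phlda2, by 0.21 (interval -0.13 to 0.56) and Tssc4 by -0.05 (interval -0.64 to 0.54). No member passed at the Snrpn-Ube3a, Impact, Commd1 and Peg13-Trappc9 loci. Of these, Commd1, a regulator of copper handling, differed by 0.21, Trappc9, a trafficking protein, by -0.06, and the potassium channel gene Kcnk9 by 0.42 (adjusted p = 0.557, 0.897 and 0.329, limma).

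At the Dlk1-Dio3 domain Meg3 and Rian, read from the maternal copy, fell, and none of the 4 paternally expressed members passed: Dlk1, the retrotransposon-derived Rtl1 (difference -0.17), the thyroid hormone deiodinase gene Dio3 (0.22) and Begain (0.56). Begain, a synaptic protein gene at the edge of the domain, was at 4.89, 4.99 and 4.89 against 5.24, 5.82 and 5.38 (adjusted p = 0.101, limma), so all of its c-kit-positive arrays were higher. Rtl1, Dio3 and Begain belonged to the dimmer 50% of all genes, as did Rian, and a difference between the parental classes was not tested. The gap between the differences of Meg3 and Dlk1 was -1.95, and that between Rian and Dlk1 -3.48, neither tested. Rtl1 overlaps both Meg3 and Rian in the reference annotation.

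The maternal RNAs of this domain are also the source of many small RNAs, and Mest carries a microRNA in an intron. Mature sequences of 3 are shown, since 1 comes from within Mest and 2 from the domain of Meg3 and Rian, with the seed (bases 2 to 8) in capitals (RefSeq, GRCm38.p6, + strand). They lie at chr6:30741314-30741336 within Mest, and at chr12:109592854-109592875 and chr12:109592888-109592909 in the Dlk1-Dio3 domain.
mmu-miR-335-5p: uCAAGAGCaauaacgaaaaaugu
mmu-miR-127-5p: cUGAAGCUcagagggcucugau
mmu-miR-127-3p: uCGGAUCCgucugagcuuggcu
None of the 3 shares a seed with another. The probe set of Mir335 was at 5.71, 6.16 and 5.39 in c-kit-negative and 5.57, 5.47 and 5.54 in c-kit-positive cells (difference -0.23, interval -0.68 to 0.22, adjusted p = 0.57, limma). That of Mir127 was at 6.51, 5.67 and 5.30 against 5.58, 5.38 and 5.35 (difference -0.39, interval -1.03 to 0.25, adjusted p = 0.487, limma). Of 40 measured microRNA genes between Dlk1 and Dio3, 0 passed limma's threshold and 0 had an unadjusted p under 0.05, with a median difference of 0.09. Of all genes, 7.41% passed in either direction and 21.0% had an unadjusted p under 0.05 (limma). Of the 40 microRNA genes, 32 were in the dimmer 50% of all genes. Whether their probe sets read mature microRNAs or longer RNAs was not tested, so no change or lack of change in mature microRNAs can be read from them. Among 3 snoRNA genes there, 0 passed and 1 had an unadjusted p under 0.05: DQ267102, at 7.04, 7.08 and 6.30 against 5.01, 5.40 and 6.70 (adjusted p = 0.168, limma), with 1 c-kit-positive array inside the c-kit-negative range. These small RNA genes were examined after the values of Meg3 and Rian were seen.

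**Figure D3:**
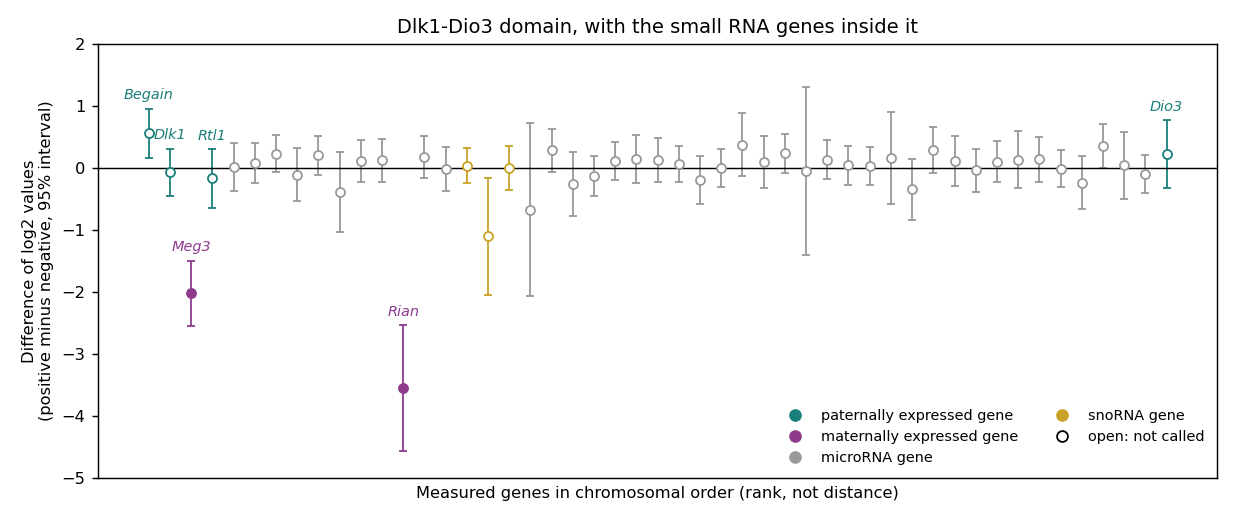
Difference of log2 values, c-kit-positive minus c-kit-negative, for the measured genes of the Dlk1-Dio3 domain in chromosomal order, with 95% intervals (limma, n = 3 arrays a population). Meg3 at -2.02 and Rian at -3.55 are the only filled points, which mark calls; the 40 microRNA genes (grey) had a median of 0.09.

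Other imprinted genes were read from a separate list of 33, of which 27 were measured. There 6 fell and 1 rose, or 22.2% and 3.70%, beside 4.70% and 2.71% of all genes, and the median difference was -0.10. The growth factor gene Igf2 was 6.78-fold lower and its clearance receptor Igf2r, the maternally expressed target of Airn, 2.44-fold (adjusted p = 7.45e-05 and 0.0011, limma). Gab1, an adaptor of receptor tyrosine kinases, was 2.29-fold lower (adjusted p = 0.0016, limma). Jade1, a chromatin reader, was the gene that rose, from 7.43 ± 0.06 to 8.44 ± 0.27 (SD, n = 3 each, adjusted p = 0.00829, limma). Pon2 and Pon3, paraoxonase genes that lie between Ppp1r9a and Asb4 in the Peg10-Sgce cluster, were 2.26-fold and 2.45-fold lower (adjusted p = 0.0121 and 0.0482, limma), and Tbc1d12 was 1.73-fold lower (adjusted p = 0.0203, limma). These 3 were chosen with their values in view. The call of Pon3 was lost on leaving out c-kit-negative replicate 1 or 2 or c-kit-positive replicate 2 or 3 (adjusted p up to 0.145, limma), and that of Tbc1d12 on leaving out c-kit-negative replicate 1 or 3 or c-kit-positive replicate 3 (up to 0.0669). Igf2r and Airn, which are read from opposite copies of 1 locus, thus both fell.

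Genes that keep or erase imprints were measured on the same arrays. Of 15, 2 fell and 3 rose, or 13.3% and 20%, beside 4.70% and 2.71% of all genes, with a median difference of 0.22. Zfp57, which protects imprints from demethylation, was at 9.05, 8.47 and 8.29 in c-kit-negative and 5.45, 5.81 and 5.65 in c-kit-positive cells, or 7.83-fold lower (adjusted p = 0.000115, limma). The populations were far apart, and the fall held with each array left out (adjusted p at most 0.00109, limma). Tet3, which oxidises methylated cytosine, averaged 7.34 ± 0.11 without c-kit and 6.34 ± 0.38 with it (SD, n = 3), and its call (adjusted p = 0.0204, limma) was lost if c-kit-negative replicate 1 or 2 was left out.

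The rises in that list were smaller. Dppa3, a germ cell and egg protein that shields imprints in the early embryo, was 1.83-fold higher (adjusted p = 0.00775, limma), with means of 9.38 ± 0.16 and 10.25 ± 0.08 (SD, n = 3). Dnmt3b, a methyltransferase that sets new marks, was 2.10-fold higher (adjusted p = 0.0164, limma), a call lost on leaving out c-kit-negative replicate 1 or 3. Hells, a chromatin remodeller, was 1.71-fold higher (adjusted p = 0.0212, limma); only leaving out c-kit-negative replicate 1 kept its call among the 6 arrays. Dnmt1, the maintenance methyltransferase, and Trim28, the partner of ZFP57, differed by 0.25 and 0.57 and did not pass (adjusted p = 0.31 and 0.0841, limma). Hells and these 2 genes were chosen with their values in view. Dppa3 is itself a germ cell marker.

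**Figure D4:**
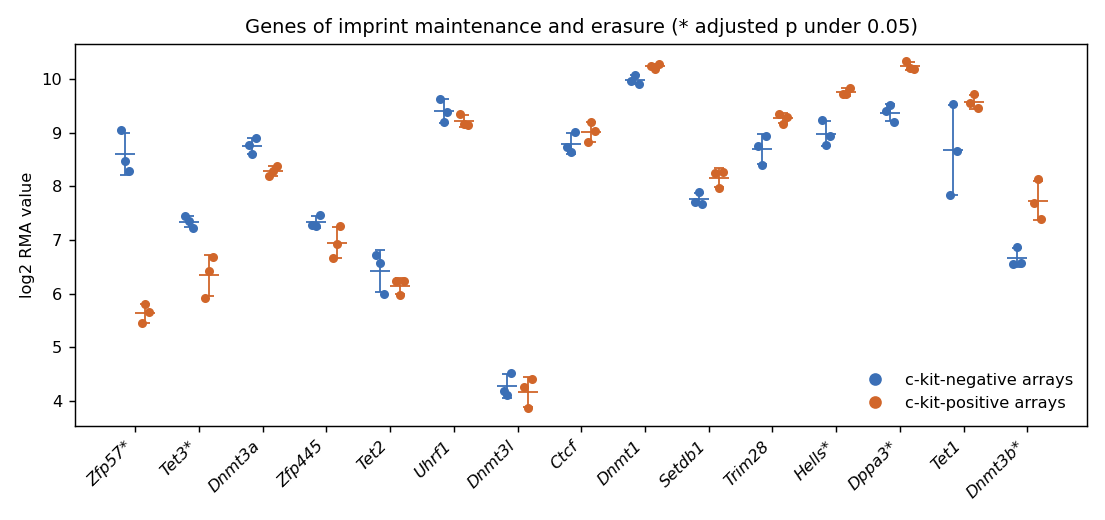
Log2 RMA value on each array for 15 measured genes of imprint maintenance and erasure, ordered by difference (points, arrays; bars, mean and SD, n = 3 a population; asterisks, adjusted p under 0.05). Zfp57 shows the widest gap, from 8.60 to 5.63, and Dnmt3b and Dppa3 rise at the right.

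Some lists of cell type markers fell as the called imprinted genes did, and others rose or changed little. For comparison, 4.70% of all genes fell and 2.71% rose. All 24 measured pan-endothelial markers fell, and their mean ranged from 8.36 to 8.47 on c-kit-negative and from 5.80 to 5.93 on c-kit-positive arrays. Of 20 markers of mesenchyme and smooth muscle 11 fell and none rose (means 6.25 to 6.53 against 5.21 to 5.33). Of 22 germ cell markers 18 rose and none fell (means 6.73 to 6.84 against 7.88 to 8.12). This list holds Kit, on which the cells were sorted; without it 17 of 21 rose (means 6.66 to 6.78 against 7.80 to 8.05). Haematopoietic progenitor genes rose in 6 and fell in 1 of 17 (means 7.14 to 7.30 against 7.52 to 7.60).

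In the remaining lists no more than 5 markers passed, to be read beside the 4.70% of all genes that fell and the 2.71% that rose. Macrophage markers fell in 3 of 14, with a negative difference in all 14 (means 6.17 to 7.31 against 5.62 to 5.82), and platelet markers in 3 of 7, with a negative difference in all 7. Erythroid markers fell in 3 and rose in 2 of 10 (means 6.65 to 7.23 against 6.06 to 6.35). The 3 were the globin genes Hbb-y, Hba-x and Hbb-bh1, 15.7-, 14.2- and 5.49-fold lower, and the 2 were Ermap and Tfrc, 1.92- and 1.69-fold higher. Neural markers fell in 2 and rose in 1 of 10 (means 5.66 to 6.06 against 5.39 to 5.56). Markers of mesonephros and gonad fell in 2 and rose in 2 of 16, and of 9 hepatoblast markers 0 passed limma's threshold, with 0 at an unadjusted p under 0.05. Without detection calls, no marker can be said to be absent. The part of these cell types in the values of the imprinted genes was not tested.

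**Figure D5:**
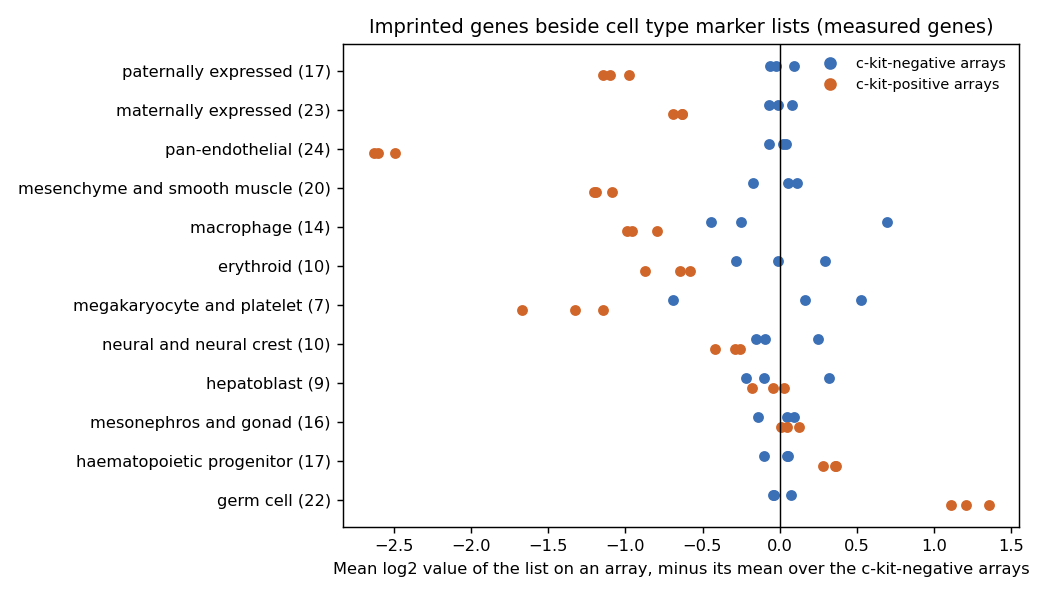
Mean log2 value of each list on each array, relative to its mean over the c-kit-negative arrays, with the number of measured genes in brackets. Both classes of imprinted genes lie left of 0 on all c-kit-positive arrays, as do pan-endothelial, mesenchymal, macrophage, erythroid, platelet and neural markers. Germ cell and haematopoietic progenitor markers lie right of 0. For hepatoblast and for mesonephros and gonad markers the populations overlap.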

How the data were processed

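RNA of 6 sorted samples was measured on 1 array each, from 5 ng of total RNA after whole-transcript amplification, per the labels' protocols. The deposited log2 values come from RMA, as the submitters' processing notes name it, with version and settings not stated there. RMA equalises the distributions of arrays, so a shift shared by all genes would be removed, and array background compresses differences of dim genes. Of 34760 probe sets, 21640 carried 1 gene symbol in the platform annotation, 1321 several, and 11799 were not listed. They covered 19937 genes; the brightest probe set stood for a gene with several.

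The labelled groups were fitted in R 4.3.3 by lmFit and eBayes of limma 3.58.1 (two-sided, without filter or block). Calls needed a Benjamini-Hochberg adjusted p under 0.05 across the 19937 genes. A negative difference means lower in c-kit-positive cells; SE and 95% intervals are from limma. The fit was tested on simulated data. The labels do not say whether samples of equal replicate number were sorted together, and the weak correlations of their deviations cannot decide it. The number of arrays limits the precision, and no detection level was set. Members, parental alleles, the breadth of imprinting and gene lists were chosen from general knowledge with earlier results of these data known; values in each array are given for members past the threshold and the rest by locus. Of other lists, up to 4 called genes with the smallest p were named. Promoter and microRNA sequences are from RefSeq (GRCm38.p6).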

Additional observations from a re-analysis of the deposited data

How the results depend on the processing

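Across 18 alternative settings, 13 of the 16 called members kept their direction and call wherever they entered the test, and none of the 16 changed sign; Rian, Zim1 and Dcn left the test without the dimmest 50% of genes. Peg3 lost its call in 10 settings, Phlda2 in 2 and Cd81 in 1. With 1 array left out, 14 to 15 members fell and 0 to 1 rose, 6 to 7 paternally and 8 maternally expressed ones fell, and the median of all members ran from -0.26 to -0.094. At a threshold of 0.01, 0 rose, and over all genes 499 fell and 131 rose in place of 937 and 540; a 2-fold minimum left 615 and 215. The median of all members was -0.29 with ribosomal protein genes as reference, a setting that moved all genes by 0.17, -0.40 without the dimmest 30% of genes and -0.82 without the dimmest 50%. With the ribosomal reference, members near 0 changed sign: Calcr to -0.018, Usp29 to -0.011, Nap1l4 to -0.021, Slc22a2 to -0.14 and Magel2 to -0.14. So did others with 1 array left out, in ranges over the 6 arrays: Dlk1 -0.19 to 0.035, Rtl1 -0.33 to 0.067, Nap1l4 -0.0065 to 0.28, Tssc4 -0.29 to 0.16, Slc22a2 -0.023 to 0.11, Magel2 -0.026 to 0.082, Mkrn3 -0.32 to 0.22, Impact -0.24 to 0.17, Blcap -0.28 to 0.19, Trappc9 -0.22 to 0.11. The replicate number as a block (replicate block) gave 14 members lower and 1 higher, the call of Peg3 being lost (adjusted p = 0.077, limma). Not every sample correlated best with its own number. Deviations of equal numbers correlated at 0.00071, 0.024 and 0.059. Depth does not apply to arrays; signal near background limits what could be seen.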

Other observations

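Genes beside the imprinted loci were called about as often as all genes. Of the 3 nearest measured genes on each side of the 15 loci, 90 in all, 4 fell and 3 rose, or 4.44% and 3.33%, beside 4.70% and 2.71% of all genes. Their median difference was 0.10. The 90 include Ins2, Th and Peg12, which also stand in the list of other imprinted genes and did not pass. At the Mest, Peg10-Sgce, Dlk1-Dio3, Peg3, Kcnq1, Igf2r-Airn, Nnat-Blcap and Dcn loci, which held calls themselves, 0 of 6 flanking genes each passed limma's threshold, with 0 to 2 of the 6 at an unadjusted p under 0.05. Genes inside a locus, such as Pon2 and Pon3, are not among them. At loci with calls, flanking genes that passed lay beside Plagl1 and Grb10-Ddc. Phactr2, a regulator of phosphatase and actin, was 4.89-fold lower and Utrn, the dystrophin relative utrophin, 2.31-fold lower next to Plagl1 (adjusted p = 0.000408 and 0.00238, limma). Fignl1, which serves DNA repair, was 1.94-fold higher next to Grb10-Ddc (adjusted p = 0.0135, limma).

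Beside loci without a called member, Zfp521, a zinc finger gene near Impact, was 2.06-fold lower and Osbpl1a, on the other side of it, 1.80-fold higher (adjusted p = 0.00193 and 0.011, limma). Atp10a, near Snrpn-Ube3a, was 1.83-fold higher (adjusted p = 0.0424, limma) and kept its call only without c-kit-positive replicate 1 when 1 array was left out. Ctsz, a lysosomal protease of macrophages near Gnas, was 2.44-fold lower (adjusted p = 0.0149, limma), and its call was lost without c-kit-negative replicate 1 or 2 or c-kit-positive replicate 1 or 3. Lum, the proteoglycan gene next to Dcn and a mesenchymal marker, differed by -1.98 without passing (adjusted p = 0.051, limma) and was chosen with its value in view.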
